A study of Mus musculus with 43 samples.

Results

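The 9 genes described here encode transcription factors of the trophectoderm, the outer layer of the early embryo, together with the caudal-type factors that also act in the tail end of the embryo. They are Cdx1, Cdx2, Cdx4, Eomes, Elf5, Tfap2a, Tfap2c, Gata2 and Gata3, found by symbol among the 22462 genes of the authors' deposited table. All 9 were in the table and 5 were tested by the authors. The series compared E14 cells, a mouse embryonic stem (ES) cell line grown with serum and LIF on gelatin, with MTF2 knockout cells of that line. MTF2 is a Polycomb-like subunit of Polycomb repressive complex 2 (PRC2), which methylates lysine 27 of histone H3 and holds many developmental genes silent. The control and knockout RNA-seq groups had the genotypes labelled Control and MTF2 KO, with 3 libraries each of oligo-dT selected RNA, described in the series design as biological replicates. The sources used here do not say how many knockout clones there were. Knockout cells with wild-type MTF2 or the K339A mutant put back, and 36 ChIP-seq samples, belong to the series but were not analysed here.

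In the mouse blastocyst, YAP and TEAD4 switch on Cdx2 and Gata3 in the outer cells, while Oct4 (Pou5f1) holds Cdx2 and Eomes down in the inner cells from which ES cells come. Cdx2, Eomes, Elf5 and Tfap2c then maintain one another in trophoblast stem cells, and Gata2, Gata3 and Tfap2a act in the trophoblast of the placenta. In the later embryo Cdx1, Cdx2 and Cdx4 relay WNT, FGF and retinoic acid signals to the Hox genes of the trunk and tail. Many of these genes are known Polycomb targets in ES cells.

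Expression values are FPKM, that is, sequenced fragments scaled to transcript length and library size, 1 pooled value per gene and group, so no SD or n can be given for any value and the depth per library is unknown. A gene is called higher or lower where the authors' tool tested it and its deposited q (adjusted p) was at or under 0.05. Ratios are log2((knockout FPKM + 0.5)/(control FPKM + 0.5)), so that fold changes of weakly expressed genes come out smaller than they are. Mtf2 itself stood at 74.3 FPKM in the control against 44.7 FPKM in the knockout, with a q of 0.0496 in the authors' deposited table, and which exons the remaining transcripts held is not known. All 9 ES cell markers looked at were present in both groups, from 41.3 to 1481 FPKM in control and from 57.5 to 1876 FPKM in knockout cells. Of them 1, Tdgf1, was called higher and 8 were not called. Scaling both groups to equal summed FPKM would move the median log2 ratio of all tested genes from -0.0035 to 0.14.

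Of the 9 regulators, 1 was called higher, 2 lower and 2 were tested but not called. The other 4 were not tested and stood under 1 FPKM in both groups. Among all 11362 tested genes 12.9% were called, 6.90% higher and 6.03% lower. The regulators were chosen with results of these data known, and no tested gene in the table stood under 1 FPKM in both groups, so their 3 calls among 5 tested genes cannot be read against that share. Gata2 rose and Cdx1 and Tfap2c fell. Of the 5 tested regulators, 4 had the lower FPKM in knockout cells, and Gata2 was the exception.

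The order of levels changed between the groups. In control cells Cdx1 was the highest, followed by Tfap2c, Eomes and Tfap2a, and Gata3, Elf5, Cdx2, Gata2 and Cdx4 were each under 1 FPKM. In knockout cells Tfap2c and Cdx1 stood side by side at 7.41 and 7.08 FPKM, and Gata2 came next, above Eomes and Tfap2a. Summed over all 9 genes, expression was 50.8 FPKM in the control against 27.8 FPKM in the knockout. Cdx1 and Tfap2c made up 75.2% of that sum in control and 52.2% in knockout cells. With 1 pooled value per group, whether neighbours in this order differ beyond the spread of libraries cannot be said.

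**Figure D1:**
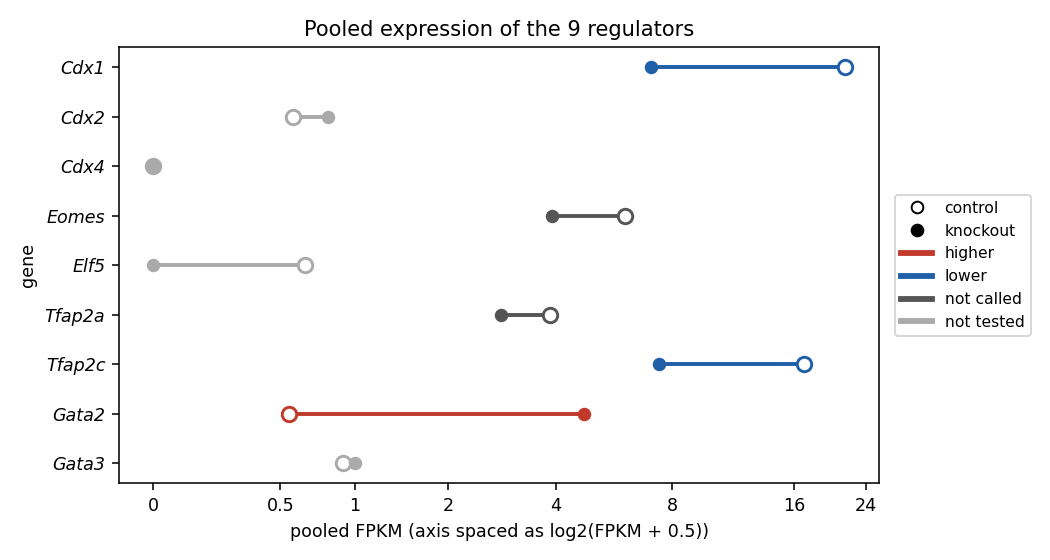
Pooled FPKM of the 9 regulators in control (open circles) and knockout cells (filled circles), on an axis spaced as log2(FPKM + 0.5), 1 row per gene. Line colours give the authors' call. Gata2 moves right from 0.547 to 4.74 FPKM, Cdx1 and Tfap2c move left, and Cdx2, Cdx4, Elf5 and Gata3 stay under 1 FPKM.

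Cdx1, the caudal gene that answers to WNT and retinoic acid in the primitive streak, was the only caudal gene above 1 FPKM. It lies on chromosome 18, 61018862 to 61036199 (mm10). It stood at 21.3 FPKM in the control against 7.08 FPKM in the knockout, 33.3% of the control level. The log2 ratio was -1.52, with a q of 0.0012 in the authors' deposited table. That is the smallest q in the table, shared by 472 genes. Of all tested genes, 2.23% had a ratio as low or lower. In control cells Cdx1 was above 82.4% of the genes in the table and in knockout cells above 67.8%.

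Cdx2, the factor that sets trophectoderm apart from the inner cell mass (chromosome 5, 147300805 to 147307270), was listed at 0.573 FPKM in the control against 0.798 FPKM in the knockout and was not tested. Cdx4, an X-linked gene of the posterior embryo and early blood (chromosome X, 103321398 to 103330592), was listed at 0 in both groups. Cdx1 accounted for 97.4% of the summed FPKM of the 3 caudal genes in the control group and 89.9% in the knockout group. The ratio of Cdx1 to Cdx2 was 37.1 in the control against 8.87 in the knockout. The drop in the caudal sum, from 21.8 to 7.88 FPKM, was therefore a drop in Cdx1. The ParaHox relatives of the caudal genes (Gsx1, Gsx2 and Pdx1) were not tested, and the highest value among the untested genes of that list was 1.40 FPKM, for Gsx2 in knockout cells.

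Tfap2c encodes AP-2 gamma, which is needed for trophoblast growth and also acts in germ cells and in ES cells. It lies on chromosome 2, 172549593 to 172558622. It stood at 16.9 FPKM in the control against 7.41 FPKM in the knockout, 43.8% of the control level. The log2 ratio was -1.14, with a q of 0.00379 in the authors' deposited table, and 4.59% of all tested genes had a ratio as low or lower. Tfap2a, which encodes AP-2 alpha of neural crest, skin and trophoblast (chromosome 13, 40715675 to 40733823), stood at 3.87 FPKM in the control against 2.83 FPKM in the knockout. The log2 ratio of -0.39 was not called (q = 0.546 in the authors' deposited table). The FPKM of Tfap2c was 4.38 times that of Tfap2a in control and 2.62 times in knockout cells.

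Eomes, a T-box factor of the trophectoderm and later of the primitive streak (chromosome 9, 118478212 to 118486132), stood at 6.07 FPKM in the control against 3.90 FPKM in the knockout. The log2 ratio of -0.58 was not called (q = 0.304 in the authors' deposited table). Of all tested genes, 16.6% had a ratio as low or lower, and 25.5% had one as low as that of Tfap2a. Elf5, an ETS factor that closes the loop with Cdx2 and Eomes in trophoblast stem cells (chromosome 2, 103411688 to 103450989), was not tested. It was listed at 0.645 FPKM in control and at 0 in knockout cells.

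Gata2 encodes a zinc finger factor of trophoblast giant cells and of early blood (chromosome 6, 88193891 to 88207032). It stood at 0.547 FPKM in the control against 4.74 FPKM in the knockout, 8.65 times the control level. The log2 ratio was 2.32, with a q of 0.00218 in the authors' deposited table, and 1.63% of all tested genes had a ratio as high or higher. Gata2 passed the authors' filter on low values only through its knockout level. The same holds for all 601 tested genes under 1 FPKM in control cells, so all had a positive ratio and none could be called lower. Of these, 85 were called higher by the authors' Cuffdiff, and 79.9% had a ratio below that of Gata2. Gata3, its close relative in the trophectoderm (chromosome 2, 9857078 to 9878600), was listed at 0.906 and 0.999 FPKM and was not tested. In control cells Gata3 thus stood at 1.66 times Gata2, and in knockout cells Gata2 stood at 4.74 times Gata3.

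**Figure D2:**
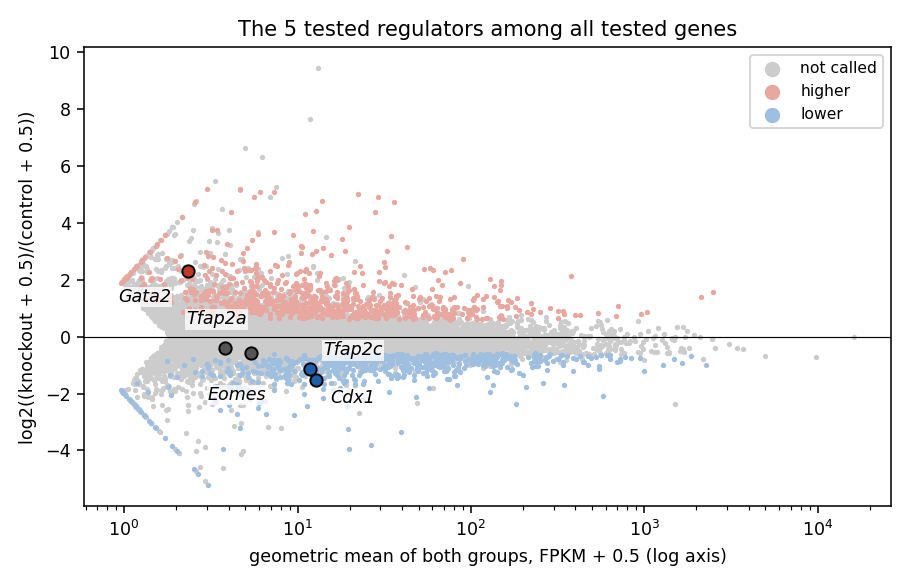
Log2 ratio of knockout over control (y axis) against the geometric mean of both groups (FPKM + 0.5, log axis) for all 11362 tested genes, coloured by the authors' call, with the 5 tested regulators labelled. Gata2 lies at 2.32 among low genes, Cdx1 (-1.52) and Tfap2c (-1.14) lie near each other at a higher level, and Eomes (-0.58) and Tfap2a (-0.39) lie inside the band of uncalled genes.

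The authors' calls of Gata2, Cdx1 and Tfap2c were lost when a normal p was computed from the deposited test statistic (q = 0.183, 0.342 and 0.495), a setting under which 1.09% of all tested genes were called. They were kept at a q of 0.01, where 6.82% were called, and with a 2-fold minimum, where 7.91% were called.

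Gata2 had the promoter windows richest in CpG among these genes. The series title links Polycomb-like proteins to CpG islands, so CpG dinucleotides were counted in the RefSeq promoter windows of GRCm38.p6, the reference of mm10, which run from 250 bases before to 50 bases after a start. Windows were found for 7 of the 9 genes, 10 windows in all. Cdx1 and Tfap2c had none. Below are the 250 bases before both starts of Gata2, the richest in CpG, before the start of Eomes, which has an intermediate number, and before the upstream start of Elf5, the poorest, each 5′ to 3′ on the gene's strand with every CpG in capitals. All 4 are on the plus strand, at chr6:88193641-88193890, chr6:88198414-88198663, chr9:118477939-118478188 and chr2:103411848-103412097.
Gata2 upstream start: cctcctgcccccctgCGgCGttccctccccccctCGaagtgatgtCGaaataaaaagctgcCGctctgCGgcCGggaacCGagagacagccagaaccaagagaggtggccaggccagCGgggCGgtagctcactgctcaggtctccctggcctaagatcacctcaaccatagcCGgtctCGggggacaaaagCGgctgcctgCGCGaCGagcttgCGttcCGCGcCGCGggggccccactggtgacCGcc
Gata2 downstream start: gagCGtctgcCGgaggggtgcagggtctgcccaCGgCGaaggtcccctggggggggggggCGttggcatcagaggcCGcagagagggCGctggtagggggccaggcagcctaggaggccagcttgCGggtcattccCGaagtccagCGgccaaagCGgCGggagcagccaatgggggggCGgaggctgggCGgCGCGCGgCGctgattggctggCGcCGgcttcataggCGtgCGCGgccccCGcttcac
Eomes: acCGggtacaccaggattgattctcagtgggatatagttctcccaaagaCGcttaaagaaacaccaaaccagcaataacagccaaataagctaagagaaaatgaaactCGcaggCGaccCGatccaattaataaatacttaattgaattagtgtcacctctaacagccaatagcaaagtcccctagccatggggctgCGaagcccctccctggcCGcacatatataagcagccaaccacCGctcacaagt
Elf5 upstream start: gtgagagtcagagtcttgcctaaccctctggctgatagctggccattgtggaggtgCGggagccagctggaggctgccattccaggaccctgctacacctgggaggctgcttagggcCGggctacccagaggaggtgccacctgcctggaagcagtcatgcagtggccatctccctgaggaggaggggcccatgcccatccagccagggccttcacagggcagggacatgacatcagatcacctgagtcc

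Those stretches hold 22 and 24 CpG for Gata2, 8 for Eomes and 2 for Elf5. Over the whole window of 300 bases the Gata2 starts held 32 and 29 CpG, more than 90.5% and 87.1% of the 32851 windows in the table. The median window held 7, with quartiles at 3 and 20. GC content was 69.3% and 73.7% in the Gata2 windows against a median of 52.7%. Gata3 followed with 22 CpG, Cdx2 with 18, the Tfap2a windows with 15 and 11, Eomes with 10 and Cdx4 with 8. The Elf5 windows held 3 at the upstream and 10 at the downstream start, with observed over expected CpG of 0.11 and 0.44 against 0.90 and 0.76 for Gata2. The genes with the closest counts to Gata2, Gata3 and Cdx2, were both untested and under 1 FPKM in both groups.

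**Figure D3:**
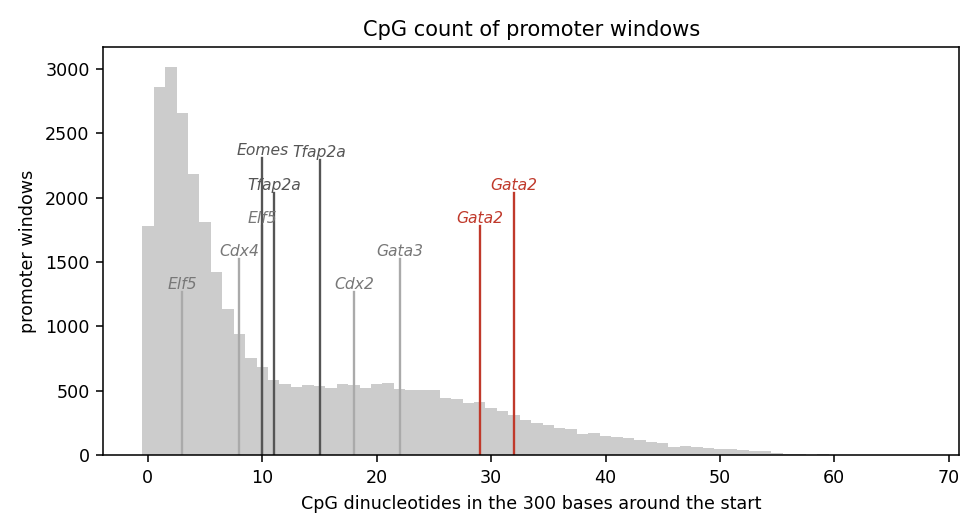
Number of promoter windows (y axis) by CpG dinucleotides in the 300 bases around a RefSeq start (x axis), over 32851 windows in grey, with the 10 windows of 7 regulators marked by lines whose height carries no value. Line colours give the call of the gene (red higher, dark grey not called, light grey not tested). The Gata2 windows stand at 32 and 29 CpG and the upstream Elf5 window at 3.

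Short motifs of these factor families were searched on both strands of the same windows. The AP-2 motif GCCNNNGGC, which reads the same on both strands, was in 3 of the 10 windows and in 16.6% of all windows: those of Gata3, with 3 matches, Cdx2 and the downstream start of Gata2. The caudal motif TTTATG was in 2 of 10 windows (11.9% of all), 1 of Elf5 and 1 of Tfap2a. The variant TTTATT, which differs from it in the last letter only, was in 4 of 10 (19.6% of all), 1 each of Elf5, Tfap2a, Eomes and Gata2. In the 250 bases before the start alone, TTTATT was in 2 of 10 and in 18.1% of all. The GATA motifs AGATAA (11.2% of all) and TGATAA (9.05% of all), the T-box motif AGGTGTGA (1.28% of all) and the ETS motif AGGAAGT (9.35% of all) were in 0 of 10. These are matches of letters in a short window and say nothing on binding.

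The wider GATA family rose at 3 genes. Of its 6 genes 3 were tested, and all 3 were called higher, beside 6.90% higher and 6.03% lower over all tested genes. As Gata2 was tested only through its knockout level, the 3 calls cannot be read against that share. Gata6 rose from 1.24 to 12.9 FPKM (log2 ratio 2.95) and Gata4 from 2.17 to 71.7 FPKM (log2 ratio 4.76). Both had a q of 0.0012 in the authors' deposited table. Gata4 and Gata6 direct primitive endoderm, the extraembryonic layer that lines the blastocyst cavity. Gata1, Gata3 and Gata5 were untested and at most 0.999 FPKM. The summed FPKM of the family was 5.81 in the control against 90.8 in the knockout, and Gata2 was 9.41% of it in control and 5.22% in knockout cells. Gata4 lies on chromosome 14, where the median log2 ratio of 405 expressed genes (1 FPKM or more in either group) was 0.71 against -0.0094 elsewhere, and none of the 9 regulators lies there. Of 7 primitive endoderm markers, 5 were called higher, Gata4 and Gata6 among them, and 0 lower, beside 6.90% higher and 6.03% lower over all tested genes. Dab2, Sox17, Sox7 and Foxa2 stood under 1 FPKM in control cells. Like Gata2, they were tested only through their knockout level and could not be called lower. The markers summed to 7.15 FPKM in the control against 197 FPKM in the knockout. That knockout sum includes the uncalled Sox17 (46.1 FPKM) and Foxa2 (9.92 FPKM). None of the markers was listed at 0 in both groups. Their part in the rise of Gata2 was not tested, and in pooled bulk RNA a larger share of such cells and more RNA per cell cannot be told apart. The 5 tested GATA cofactors had 0 calls by the authors' Cuffdiff, beside 12.9% over all tested genes, and 0 at an unadjusted p under 0.05. Among them were Ldb1 (501 and 394 FPKM) and Zfpm1 (5.98 and 8.02 FPKM), which encode partners of GATA factors. Zfpm1 sits in a merged locus entry, so its value is uncertain. The tested cofactor genes Lmo2 and Lyl1 were under 1 FPKM in control cells. They were tested only through their knockout level and could not be called lower.

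In the list of AP-2 genes and cofactors, 7 of 10 were tested, 1 called higher, 2 lower and 4 not called. Over all tested genes 6.90% were called higher and 6.03% lower. The median log2 ratio was 0.72 against -0.0035 over all tested genes. Above that median lay the uncalled Cited1, Tfap2b (0.356 and 1.39 FPKM) and Kctd1 (1.44 and 3.62 FPKM). Of these, Cited1 and Tfap2b were tested only through their knockout level, and Kctd1 was not. An unadjusted p under 0.05 by Cuffdiff was held by 4 of the 7. The share of all tested genes at that p was not computed, and the shares above are for q. Kctd15, an inhibitor of AP-2 alpha, fell beside Tfap2c from 22.4 to 10.8 FPKM (log2 ratio -1.02, q = 0.00953 in the authors' deposited table). Cited2, a coactivator of AP-2 factors, rose from 60.2 to 99.8 FPKM (log2 ratio 0.72, q = 0.0154 in the authors' deposited table). Cited1, another of that coactivator family, was listed at 0.774 and 37.8 FPKM and was not called (q = 0.498 in the authors' deposited table). The sum over the 5 AP-2 genes was 21.6 FPKM in the control against 12.1 FPKM in the knockout, and Tfap2c gave 78.6% and 61.5% of it.

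Relatives of Eomes and Elf5 were read beside the 12.9% called over all tested genes. Among 17 T-box genes 5 were tested, with 0 calls by the authors' Cuffdiff, 0 at an unadjusted p under 0.05 and log2 ratios from -0.85 to 0.31. Brachyury (T), the streak marker, stood at 3.91 and 1.94 FPKM (q = 0.320 in the authors' deposited table), and Tbx3, a gene of the ES cell network, at 168 and 145 FPKM. Among 9 ETS genes 6 were tested, with 0 calls by Cuffdiff, 0 at an unadjusted p under 0.05 and ratios from -0.27 to 0.59. Elf3, an epithelial relative of Elf5, stood at 29.9 and 32.1 FPKM.

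Regulators that act upstream of the trophectoderm genes moved both ways. All 18 of the list were tested, 3 were called higher, 3 lower and 12 not called, beside 6.90% higher and 6.03% lower over all tested genes, with a median log2 ratio of 0.0039. The 6 calls, Tfap2c among them, had q values from 0.0012 to 0.0275 in the authors' deposited table. An unadjusted p under 0.05 by Cuffdiff was held by 8 of the 18, with no share over all tested genes computed beside it. Tead2, a partner of YAP, fell from 235 to 130.2 FPKM (log2 ratio -0.85), and the Notch effector gene Rbpj fell from 16.6 to 9.84 FPKM (log2 ratio -0.73). Amot, a membrane protein gene that keeps YAP out of the nucleus, rose from 0.402 to 18.3 FPKM (log2 ratio 4.39). Like Gata2, Amot and the uncalled Lats2 (0.463 and 4.75 FPKM) were tested only through their knockout level and could not be called lower. Wwtr1, which encodes the YAP relative TAZ, rose from 19.9 to 38.8 FPKM (log2 ratio 0.94), and Klf5, on chromosome 14, rose from 305 to 522 FPKM (log2 ratio 0.78). Tead4, the factor that switches on Cdx2, stood at 25.8 and 37.9 FPKM and was not called (q = 0.122 in the authors' deposited table), and Yap1 stood at 81.3 and 61.5 FPKM (q = 0.219 in the authors' deposited table).

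Of 45 trophoblast genes 26 were tested, 6 called higher, 1 lower and 19 not called, beside 6.90% higher and 6.03% lower over all tested genes, with a median log2 ratio of 0.31. The 7 calls had q values from 0.0012 to 0.0167 in the authors' deposited table. The uncalled Hand1, Mbnl3 and Fgfr2 were under 1 FPKM in control cells. They were tested only through their knockout level, so their ratios had to be positive and they could not be called lower. An unadjusted p under 0.05 by Cuffdiff was held by 9 of the 26, with no share over all tested genes computed beside it. The called genes with the largest gains were Krt18 (9.55 to 117 FPKM, log2 ratio 3.55), Krt8 (6.11 to 52.9 FPKM, log2 ratio 3.01) and the galectin gene Lgals3 on chromosome 14 (9.21 to 46.1 FPKM, log2 ratio 2.26). Krt8 and Krt18 encode the keratin pair of all simple epithelia, endoderm included. The water channel gene Aqp3 fell from 71.9 to 32.5 FPKM (log2 ratio -1.13). Of the 9 trophoblast markers 2 were called higher, Krt8 and Krt18, and their summed level went from 22.9 to 177 FPKM. Without the keratin pair the other 7 summed to 7.21 FPKM in the control against 6.68 FPKM in the knockout. Most of that sum came from Plet1 (3.85 and 2.82 FPKM) and Ascl2 (1.98 and 1.76 FPKM), both not called. Krt7, Gcm1, Prl3d1 and Tpbpa were not tested, and Prl3d1 and Tpbpa were listed at 0 in both groups. Krt7 stood at 0.228 and 0.268 FPKM, Gcm1 at 0.304 and 0.132 FPKM and Hand1 at 0.841 and 1.70 FPKM.

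Of 23 tested genes known to hold the trophectoderm programme down in ES cells, 0 were called higher, 2 lower and 21 not called, beside 6.90% higher and 6.03% lower over all tested genes, and the median log2 ratio was -0.22. An unadjusted p under 0.05 by Cuffdiff was held by 8 of the 23, with no share over all tested genes computed beside it. Dnmt3a, a de novo DNA methyltransferase gene, fell from 100.4 to 22.7 FPKM (log2 ratio -2.12, q = 0.0012 in the authors' deposited table). Mbd3, a subunit gene of the NuRD repressor complex, fell from 207 to 124 FPKM (log2 ratio -0.74, q = 0.0137 in the authors' deposited table). Pou5f1, the direct repressor of Cdx2, stood at 1312 and 1212 FPKM (q = 0.806 in the authors' deposited table) and was not called.

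In the list of WNT and posterior genes, 14 of 30 in the table were tested, 2 called higher, 0 lower and 12 not called, beside 6.90% higher and 6.03% lower over all tested genes. The median log2 ratio was 0.03. Of the 14, 3 had an unadjusted p under 0.05 by Cuffdiff, with no share over all tested genes computed beside it. The 16 untested genes reached at most 1.27 FPKM, for Fgf8 (1.27 and 0.261 FPKM), a signal of the streak and tail bud. Axin2, a feedback inhibitor induced by WNT, rose from 10.7 to 20.9 FPKM (log2 ratio 0.93, q = 0.0122 in the authors' deposited table), and the activin-binding protein gene Fst rose from 1.42 to 11.7 FPKM (log2 ratio 2.67, q = 0.0012 in the authors' deposited table). Cyp26a1, whose enzyme breaks down retinoic acid, was listed at 0.329 FPKM in the control against 166 FPKM in the knockout and was not called (q = 0.476 in the authors' deposited table). Cyp26a1 and the uncalled Mnx1, Nkx1-2 and Foxa2 were under 1 FPKM in control cells. They were tested only through their knockout level, so their ratios had to be positive and they could not be called lower. Of 17 genes in the table listed here as downstream of CDX factors in the intestine, 5 were tested. Of these, 0 were called by the authors' Cuffdiff and 0 had an unadjusted p under 0.05. They included Cdh1, the epithelial cadherin gene (229 and 254 FPKM). Of those 17 genes, 9 were listed at 0 in both groups.

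**Figure D4:**
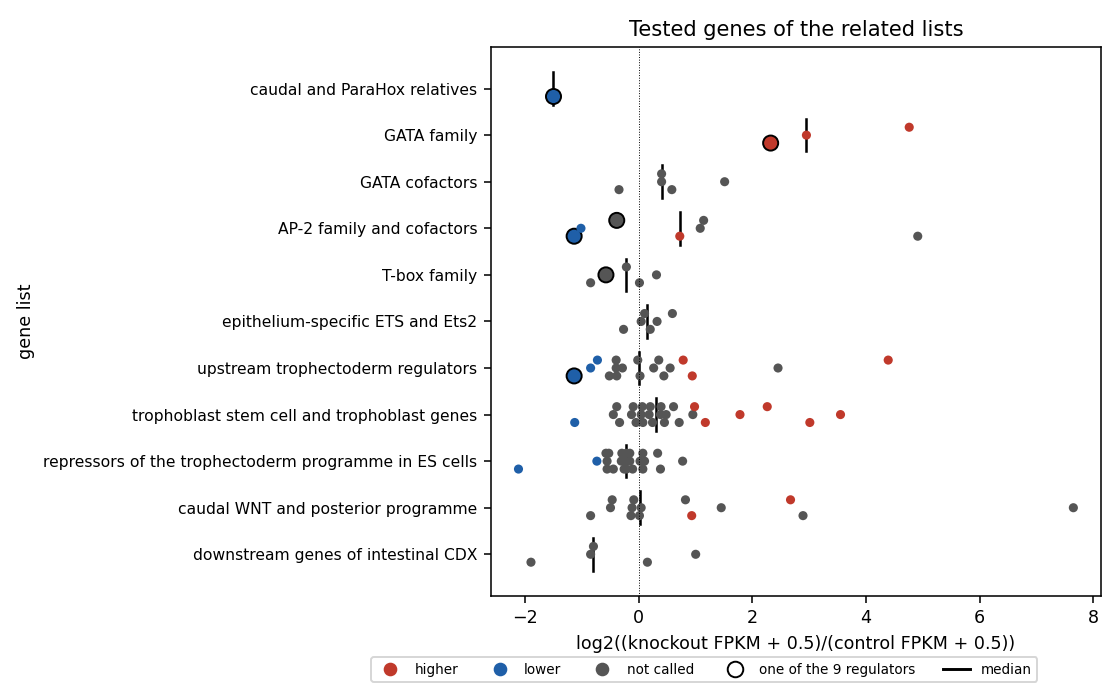
Log2 ratio of knockout over control (x axis) for the tested genes of 11 related lists (rows), 1 point per gene coloured by the authors' call, with the regulators outlined and a bar at each list's median. The 3 tested GATA genes lie between 2.32 and 4.76, and the T-box and ETS genes hold no call.

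The regulators were also read against their chromosomal surroundings. For each gene the 10 nearest expressed genes on either side were read. The neighbours of Cdx1 had a median log2 ratio of 0.07 with 1 called higher and 1 lower, those of Tfap2c -0.05 with 1 higher and 0 lower, and those of Gata2 -0.07 with 1 higher and 2 lower. The ratio of Tfap2c (-1.14) lay below all 20 of its neighbours, whose lowest was -0.85, and that of Gata2 (2.32) above all 20 of its own, whose highest was 0.97. The ratio of Cdx1 (-1.52) was passed by 1 neighbour, Cd74 (6.27 and 1.41 FPKM), which was not called. With 5 genes on either side the median around Cdx1 was -0.24, on the other side of 0. Medians around the other 6 genes ran from -0.32 for Cdx2 to 0.34 for Elf5. No other gene of the table overlapped any of the 9 loci.

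**Figure D5:**
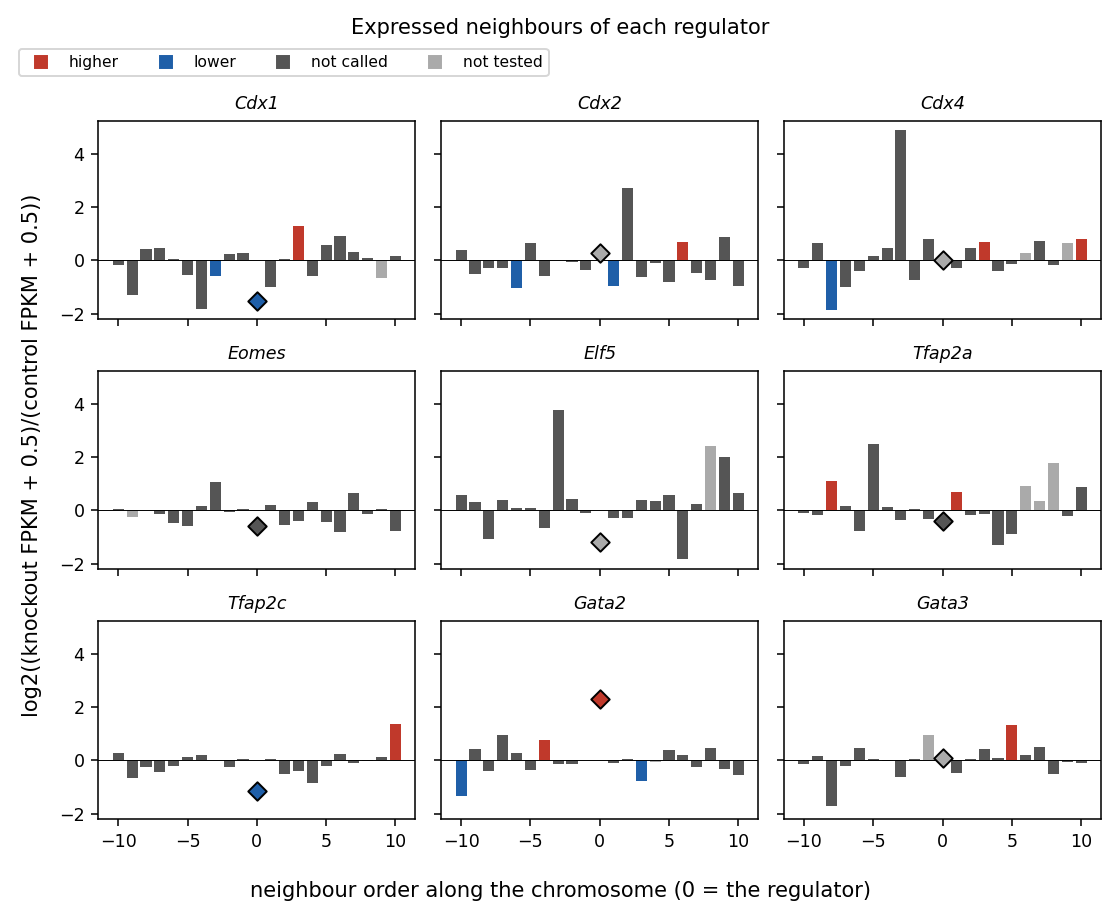
Log2 ratio (y axis) of the 10 expressed genes on either side of each regulator in chromosome order (x axis, bars), with the regulator at 0 as a diamond and colours by the authors' call. Gata2 stands above and Tfap2c below all of their 20 neighbours, while tall uncalled bars flank Cdx2, Cdx4, Elf5 and Tfap2a.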

How the data were processed

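RNA-seq of 3 control and 3 MTF2 knockout libraries was analysed from 1 table. Per the submitters' processing notes, the tools were TopHat2 2.1.0, Cuffdiff 2.2.1.3, Bowtie 1.0 and deepTools and the builds mm10 and mm9. The table has Cuffdiff's columns and name, and which build it was made on is not stated. The FPKM values were pooled per group by the authors, per the file headers. The deposited log2 fold change is knockout over control without a pseudocount, and the deposited test statistic is a score by the authors' tool. The deposited q-value matched the deposited p-value of 11362 tested genes after adjustment by Benjamini and Hochberg (BH), to within 5.2e-07. Of the other genes, 11098 had status NOTEST and 2 FAIL. No test across libraries was possible, so every call is the authors'.

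Computed here were log2 ratios with a pseudocount of 0.5, counts over 11 lists, neighbour medians and promoter counts (Python 3.11.15, pandas 2.3.3). Table starts were moved from 0-based to 1-based. All 9 genes lie on the same chromosome as in RefSeq on GRCm38.p6, and Cdx1 and Gata2 have identical ends there, so coordinates are given as mm10. The BH code was tested on simulated data. The genes and lists were chosen with earlier results of these data known. Named genes were the 9 regulators, Mtf2 and, per list, up to 3 called higher, 3 called lower and 2 uncalled with the highest FPKM. Gsx2, Fgf8, T, Tead4, Krt7, Gcm1, Hand1, Prl3d1, Tpbpa, Tdgf1 and Cd74 were named after their values were seen. So were Plet1, Ascl2, Tfap2b, Kctd1, Dab2, Sox17, Sox7, Foxa2, Lats2, Mnx1, Nkx1-2, Mbnl3, Fgfr2, Lmo2 and Lyl1. A gene that the rule takes is not reported here. Of the list entries, 4 matched no gene of the table, as they were older or misspelt symbols. Protein sequences were not used here. Alternatives were other thresholds, pseudocounts, p-values, scalings, window lengths and neighbour numbers.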

Additional observations from a re-analysis of the deposited data

How the results depend on the processing

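The direction of the 5 tested regulators turned in 0 of the 10 comparisons with another scaling. This could not have come out otherwise. Scaling to equal sums amounted to 0.15 in log2, less than the smallest change among the 5, that of Tfap2a. Its ratio went from -0.39 to -0.27 with equal sums and stayed at -0.39 with median centring. The other alternatives cannot turn a direction, so how firm the directions are was not tested. Of all 39 comparisons (2 thresholds, 2 pseudocounts, 2 scalings and 2 other p-values), 3 lost a call: Cdx1, Gata2 and Tfap2c when a normal p was taken from the authors' test statistic. Under that p 0 of 5 regulators and 124 of all tested genes were called, against 3 and 1469 with the authors' Cuffdiff q. An unadjusted normal p under 0.05 was held by 3 regulators, with no share over all tested genes computed beside it. The cause of the lost calls was not tested. Over all genes there were 775 calls at a q of 0.01 and 899 with a 2-fold minimum. BH over genes at 1 FPKM or more in both groups leaves out Gata2 by construction and kept the calls of Cdx1 and Tfap2c, 2 in all. The list of trophectoderm repressors went from 2 calls to 1 at a q of 0.01 and to 1 with a 2-fold minimum, and the WNT and posterior list did the same (1 and 1). The upstream list went from 6 calls to 2 with a 2-fold minimum. Neighbour medians with 5 genes on either side moved by less than the SD of the neighbours for all 9 genes, though that of Cdx1 went from 0.07 to -0.24. In the shorter window of 250 bases before a start the CpG count was 13 for Cdx2, 5 for Cdx4, 22 for the upstream start of Gata2 and 10 for the downstream start of Tfap2a, where the 300 bases held 18, 8, 32 and 15. The other 6 windows moved by less than the square root of their count. No paired analysis was possible because the table holds 1 pooled value per group, and for the same reason no library was left out. Depth is unknown, and the 4 untested regulators were below the authors' test.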
